A study of Mus musculus with 32 samples.

Results

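The genes described here are 10 of the 36595 genes in the count table of a study of amyloid formation in cultured mouse islets, taken by their symbols. Of these, 7 belong to MHC class II antigen presentation (Cd74, H2-Aa, H2-Ab1, H2-Eb1, H2-DMa, H2-DMb1 and Ciita) and 3 to the B cell antigen receptor (Cd79a, Cd79b and Ighm). The donors of the islets were C57BL/6NHsd mice of both sexes, male and female, at 10 weeks of age. In hIAPP mice a human copy of IAPP, which encodes islet amyloid polypeptide, a beta cell hormone that forms amyloid in its human form, had replaced the mouse Iapp locus by homologous recombination, and mIAPP mice were their wild-type littermates. All islets recovered overnight at 11.1 mM glucose and were then kept for 48 h at 16.7 or 11.1 mM. The 4 groups were thus hIAPP and mIAPP islets kept at 16.7 mM, and hIAPP and mIAPP islets kept at 11.1 mM glucose. Each had 8 libraries of poly(A)-selected RNA, 1 from each of 8 experiment sets. The number of mice behind a set is not stated, nor are their zygosity and the sex behind a library, and no islet cell type was sorted out, so all values are for whole cultured islets.

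MHC class II molecules are cell surface pairs of an alpha and a beta chain that show peptides from engulfed protein to CD4+ T cells. The invariant chain, encoded by Cd74, holds the empty pair until it reaches the endosome, where the H2-DM pair helps swap the last piece of the invariant chain for a peptide; CIITA, the product of Ciita, is the coactivator that switches these genes on. Macrophages, dendritic cells and B cells carry class II constantly, and in islets of healthy mice the resident macrophages are its best known source. On B cells, the membrane form of the IgM heavy chain (Ighm) signals through the Cd79a and Cd79b pair.

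CIITA does not bind DNA itself but docks on proteins held at a conserved promoter module, made of an X box followed at a fixed distance by a Y box. The stretches below are the 150 bases before the start site of 4 of the genes, from RefSeq's promoter table on GRCm38.p6, written 5′ to 3′ along the gene. They show class II genes in which the module was found and a B cell receptor gene in which it was not. It was also not found in the windows listed for H2-DMa, a class II gene that is not shown. Capitals mark the module where it was found.

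H2-Aa (chr17:34287824-34287973, minus strand): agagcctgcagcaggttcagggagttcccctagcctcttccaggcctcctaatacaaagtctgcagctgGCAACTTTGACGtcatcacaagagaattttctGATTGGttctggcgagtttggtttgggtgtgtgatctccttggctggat
H2-Eb1 (chr17:34305717-34305866, plus strand): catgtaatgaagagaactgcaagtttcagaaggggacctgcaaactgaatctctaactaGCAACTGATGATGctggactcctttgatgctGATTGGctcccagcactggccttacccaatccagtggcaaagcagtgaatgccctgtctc
H2-DMb1 (chr17:34153041-34153190, plus strand): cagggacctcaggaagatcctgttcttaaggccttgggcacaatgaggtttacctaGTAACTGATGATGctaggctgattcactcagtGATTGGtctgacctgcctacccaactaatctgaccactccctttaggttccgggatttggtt
Cd79a (chr7:24897347-24897496, plus strand): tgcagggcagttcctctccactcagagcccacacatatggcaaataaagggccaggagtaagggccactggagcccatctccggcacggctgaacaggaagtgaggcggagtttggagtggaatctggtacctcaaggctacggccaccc

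The module was searched on both strands as GNAAC, then 0 to 3 bases, then TGANG (the X box), then 10 to 25 bases, then GATTGG (the Y box), where N is any base. The X box began 81 bases before the start of H2-Aa, 91 before that of H2-Eb1 and 94 before that of H2-DMb1, and the Y box 49, 60 and 62 bases before these starts. Of 32851 promoter windows of 300 bases in the table, 18 held the module (0.0548%), from 17 gene symbols, of which H2-Aa, H2-Eb1, H2-DMb1, H2-Eb2 and H2-Ob are class II genes. GATTGG alone stood in 16.1% of the windows. The windows of 5 of the 10 genes were looked at singly, a step that left out chromosome 18, where Cd74 lies. No window was listed for H2-Ab1, Ciita, Cd79b or Ighm, so these genes were not searched for the module. Cd74 was not among the 17 symbols with the module. No module was found in the Cd79a window or in either of the windows listed for H2-DMa. These H2-DMa windows belong to start sites at 34122832 and 34125518 of a gene model that runs from 34119541 to 34139101. A start site of H2-DMa elsewhere in the model was not searched, so whether the gene has the module is not known. A match is a description of the letters only.

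Expression is given as CPM, a gene's counts per M (mega) of library counts after TMM scaling, a correction for differences in RNA makeup between libraries. The libraries held 16.1 to 43.7 M estimated counts, and 16428 genes passed a filter on low counts, all 10 genes among them. Differences are log2 fold changes with their standard error (SE) from edgeR's quasi-likelihood test, fitted over all 32 libraries with the experiment set as a block; p-values were adjusted by the Benjamini-Hochberg method across every gene that passed the filter, with a threshold of 0.05. Iapp, the replaced gene, had 9764 to 11583 CPM in hIAPP islets and 16864 to 30408 CPM in mIAPP islets at 16.7 mM, and 5647 to 7912 CPM (hIAPP) and 8645 to 15614 CPM (mIAPP) at 11.1 mM, with no overlap at either glucose level; whether the hIAPP counts come from human sequence is not known. Mitochondrial genes took a share of counts that differed between the groups, with means of 4.06% in hIAPP and 11.3% in mIAPP islets kept at 16.7 mM, and of 16.6% in hIAPP and 18.2% in mIAPP islets kept at 11.1 mM. It was under 10% in 8, 5, 2 and 3 libraries of these groups, and 1 mIAPP library at 16.7 mM, that of set 7, stood apart at 37.0%.

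Apart from H2-DMa, RNA of the class II genes was lower at 16.7 than at 11.1 mM glucose in both genotypes. RNA of Cd79a and Ighm was lower too, and Cd79b did not fall. The glucose calls of H2-DMa and Ciita depended on the fit. At 16.7 mM the main class II genes and Cd79a were lower still in hIAPP islets. These genotype calls also depended on the fit. Without the set as a block 2 of the 10 genes passed, and with the mitochondrial share as a covariate 0 passed. At 16.7 mM, 5 of the 10 genes fell in hIAPP relative to mIAPP islets (Cd74, H2-Aa, H2-Ab1, H2-Eb1 and Cd79a), against 11.2% of all tested genes that fell, 9.27% that rose and 20.5% that changed in either direction. Their median log2 fold change was -0.78 over the 10 genes and -0.0076 over all genes. At 11.1 mM, edgeR called 0 of the 10, as did DESeq2 and limma voom, against 0.128% of all genes in either direction and 0.0183% lower, and 0 of the 10 had an unadjusted p under 0.05; the median was -0.05, against 0.0037 over all genes. Between 16.7 and 11.1 mM glucose, 9 of the 10 fell in hIAPP islets (33.3% of all genes fell and 65.5% changed in either direction) and 8 of the 10 in mIAPP islets (22.7% of all genes fell). The medians were -2.05 in hIAPP islets and -1.21 in mIAPP islets, with -0.02 and -0.03 over all genes. The genotype by glucose interaction, the difference of the 2 glucose responses (hIAPP minus mIAPP), passed for 1 of the 10, Cd74, against 3.12% of all genes, 2.17% above 0 and 0.95% below it. The comparisons share libraries, so their counts are not separate evidence. In RNA from whole islets, fewer cells of a type and less RNA per cell cannot be told apart.

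**Figure D1:**
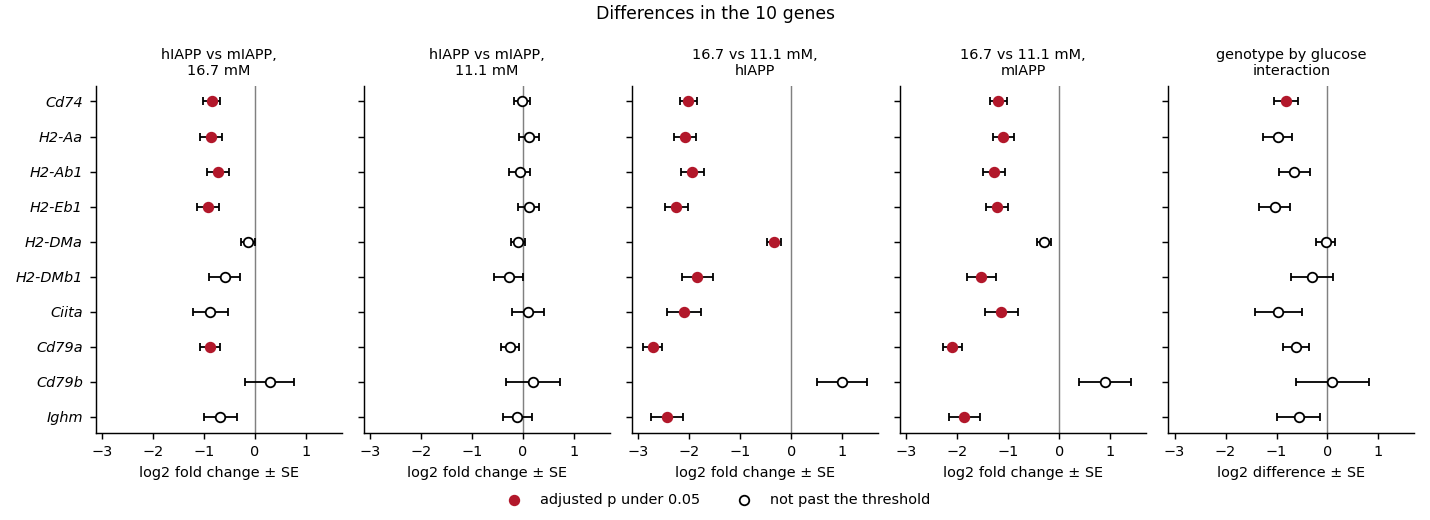
Log2 fold change with its SE (horizontal axis) of each of the 10 genes (rows) in the 4 pairwise comparisons and the interaction, from 8 libraries per group. Filled points passed an adjusted p of 0.05; 5 of 10 genes did so between genotypes at 16.7 mM, 0 of 10 at 11.1 mM, and 9 and 8 of 10 between glucose levels in hIAPP and mIAPP islets.

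Levels differed widely between the genes. Per kilobase of annotated exon sequence, in mIAPP islets at 11.1 mM glucose, Cd74 had the highest level at 39.6 ± 8.53 CPM per kb (SD, n = 8). H2-Eb1 (7.64 ± 1.90), H2-Ab1 (5.72 ± 1.66), Cd79a (4.48 ± 1.27) and H2-Aa (4.38 ± 0.847) followed on the same scale; these neighbours differed by less than the larger of their SDs, except H2-Eb1 and H2-Ab1. H2-DMa was at 2.61 ± 0.879, H2-DMb1 at 1.10 ± 0.343 and Ighm at 0.892 ± 0.344 CPM per kb, and H2-DMb1 and Ighm did not differ beyond their spread. Cd79b (0.237 ± 0.194) and Ciita (0.157 ± 0.0947) were lowest and lay within each other's spread. A coactivator gene with a low level and an invariant chain gene with a high one stood at the ends of this order. Lengths are of all annotated exons of a gene together, so they can exceed the main transcript.

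**Figure D2:**
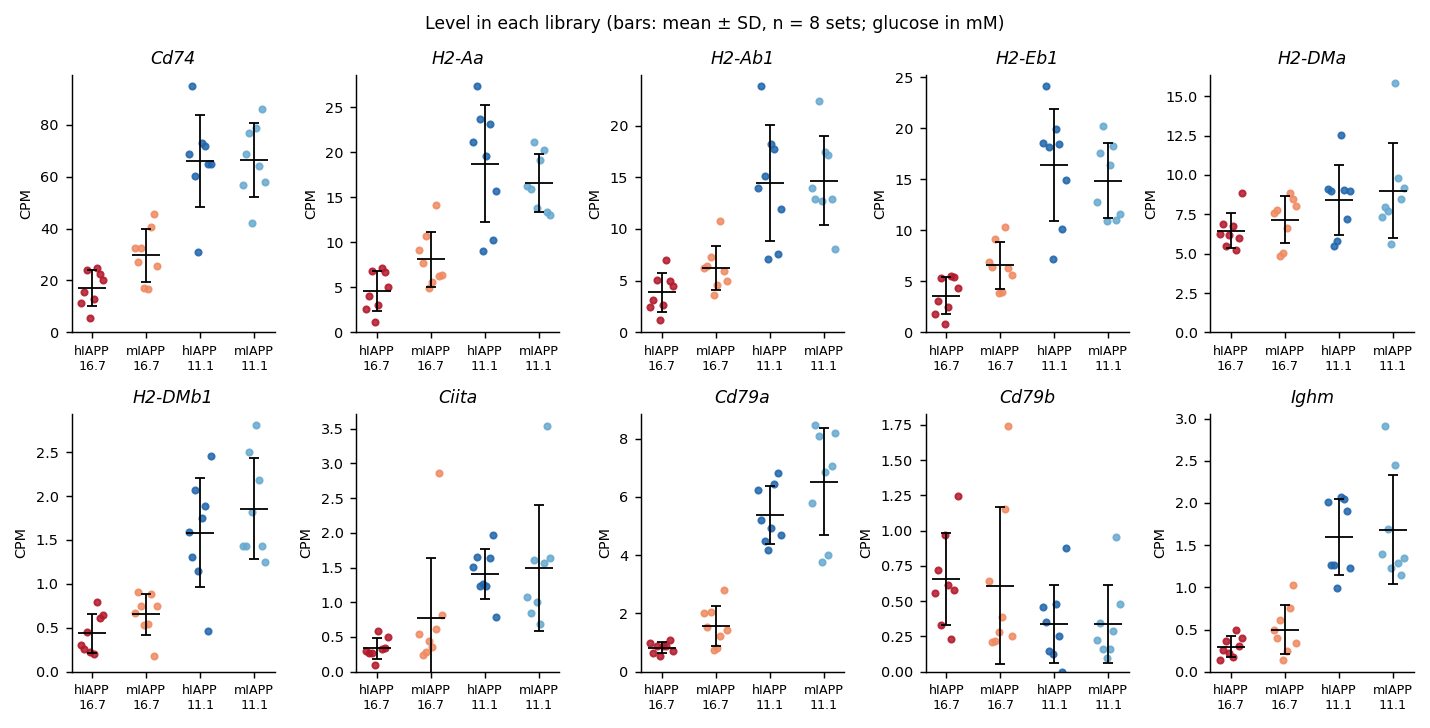
CPM (vertical axis, from 0) of each of the 10 genes in every library (points, in order of set), with the mean and SD of the 8 libraries of a group in black. At 16.7 mM the hIAPP libraries of Cd74 lie between 5.63 and 24.9 CPM and the mIAPP libraries between 16.9 and 45.6 CPM, and the libraries at 11.1 mM reach 94.9 CPM.

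Cd74, the invariant chain gene, lies on chromosome 18 (60803848 to 60812652, plus strand; coordinates here and below are of GRCm38 in GENCODE). Its lowest, median and highest library had 5.63, 17.8 and 24.9 CPM in hIAPP islets at 16.7 mM, against 16.9, 29.7 and 45.6 CPM in mIAPP islets at 16.7 mM. At 11.1 mM these values were 30.8, 66.8 and 94.9 CPM in hIAPP and 42.0, 66.5 and 86.2 CPM in mIAPP islets. The hIAPP libraries at 16.7 mM were all below the hIAPP libraries at 11.1 mM, while the genotypes overlapped at both glucose levels and the mIAPP groups overlapped slightly. Cd74 fell by 0.84 ± 0.17 on the log2 scale (SE) in hIAPP relative to mIAPP islets at 16.7 mM (adjusted p = 0.000858, edgeR), in 8 of 8 sets. At 11.1 mM the difference was -0.02 ± 0.16 (adjusted p = 0.980, lower in 4 of 8 sets). At 16.7 relative to 11.1 mM Cd74 was 4.04-fold lower in hIAPP islets, a log2 change of -2.02 ± 0.17 (adjusted p = 3.04e-10). The fall was 2.29-fold in mIAPP islets, or -1.20 ± 0.17 (adjusted p = 2.39e-06), and both held in 8 of 8 sets.

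The interaction for Cd74 was -0.82 ± 0.23 (adjusted p = 0.0485), below 0 in 8 of 8 sets, from -1.77 to -0.07. This call was near the threshold. It was lost without set 1, 2, 4, 6, 7 or 8 (adjusted p 0.0717 to 0.214), without only the 16.7 mM mIAPP library of set 7 (-0.76, adjusted p = 0.0869) and in libraries with under 10% mitochondrial counts (-0.37, adjusted p = 0.644). Without the set as a block its adjusted p was 0.356, with the mitochondrial covariate it was -0.63 (adjusted p = 0.389), and with no filter on low counts its adjusted p was 0.0841.

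The 3 chain genes sit together on chromosome 17. H2-Ab1 (34257689 to 34269419, plus strand) encodes the beta chain and H2-Aa (34282744 to 34287823, minus strand) the alpha chain of the I-A molecule, and H2-Eb1 (34305867 to 34316674, plus strand) the beta chain of I-E; an antisense model, Gm20513, overlaps H2-Eb1. The alpha chain of I-E is known to be unexpressed in mice of the C57BL/6 line, so H2-Eb1 RNA has no I-E partner there.

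H2-Aa had 1.19, 4.52 and 7.17 CPM in its lowest, median and highest hIAPP library at 16.7 mM, against 4.95, 7.08 and 14.1 CPM in mIAPP islets. At 11.1 mM it had 9.07, 20.4 and 27.4 CPM in hIAPP and 13.0, 16.1 and 21.2 CPM in mIAPP islets. All hIAPP libraries at 16.7 mM thus lay below all hIAPP libraries at 11.1 mM, and the genotypes overlapped at each glucose level. H2-Aa fell by 0.86 ± 0.21 on the log2 scale (SE) in hIAPP relative to mIAPP islets at 16.7 mM (1.82-fold, adjusted p = 0.0056), in 7 of 8 sets, and at 11.1 mM stood at 0.12 ± 0.20 (adjusted p = 0.914).

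H2-Ab1 had 1.19, 3.81 and 7.05 CPM in hIAPP islets and 3.62, 6.12 and 10.7 CPM in mIAPP islets at 16.7 mM (lowest, median and highest library). At 11.1 mM it had 7.09, 14.5 and 23.8 CPM in hIAPP and 8.05, 13.4 and 22.3 CPM in mIAPP islets. Its highest hIAPP library at 16.7 mM lay just under its lowest at 11.1 mM. H2-Ab1 fell by 0.72 ± 0.22 in hIAPP relative to mIAPP islets at 16.7 mM (1.65-fold, adjusted p = 0.0218), in 8 of 8 sets, a call that was lost without set 1 (-0.63, adjusted p = 0.0939); at 11.1 mM it was at -0.07 ± 0.21 (adjusted p = 0.953).

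H2-Eb1 had 0.845, 3.73 and 5.55 CPM in hIAPP islets and 3.87, 6.36 and 10.3 CPM in mIAPP islets at 16.7 mM. At 11.1 mM it had 7.16, 18.3 and 24.1 CPM in hIAPP and 10.9, 14.6 and 20.2 CPM in mIAPP islets. It was the chain gene whose glucose groups were apart in both genotypes. H2-Eb1 fell by 0.92 ± 0.22 in hIAPP relative to mIAPP islets at 16.7 mM (1.89-fold, adjusted p = 0.00493), in 8 of 8 sets, and was at 0.11 ± 0.21 at 11.1 mM (adjusted p = 0.918).

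With glucose, the chain genes fell 4.23-fold (H2-Aa), 3.83-fold (H2-Ab1) and 4.78-fold (H2-Eb1) in hIAPP islets, with log2 values of -2.08 ± 0.21, -1.94 ± 0.22 and -2.26 ± 0.22 (adjusted p = 9.27e-09, 5.17e-08 and 5.25e-09). In mIAPP islets they fell 2.15-fold, 2.44-fold and 2.33-fold in the same order (-1.10 ± 0.20, -1.29 ± 0.21 and -1.22 ± 0.21; adjusted p = 0.000108, 2.95e-05 and 5.39e-05). All of these falls held in 8 of 8 sets. The interaction was -0.98 ± 0.29 for H2-Aa (adjusted p = 0.0614, below 0 in 7 of 8 sets), -1.03 ± 0.30 for H2-Eb1 (adjusted p = 0.0589, 8 of 8) and -0.65 ± 0.30 for H2-Ab1 (adjusted p = 0.246, 6 of 8), and so did not pass. H2-Aa and H2-Eb1 passed with DESeq2 (adjusted p = 0.0178 and 0.0158), with limma voom (0.0120 and 0.0174), with a filter at a mean of 1 CPM (0.0481 and 0.0460) and with set 7 left out (0.0131 and 0.0229). They were further from the threshold without the block (0.294 and 0.310), with the log2 mitochondrial share as a covariate (0.244 and 0.347), in libraries with under 10% mitochondrial counts (0.346 and 0.394) and at the highest with another set left out (0.235 and 0.233).

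The ratio of Cd74 to the chain genes was similar across the groups. Cd74 CPM divided by the summed CPM of H2-Aa, H2-Ab1 and H2-Eb1 averaged 1.49 ± 0.163 in hIAPP islets and 1.46 ± 0.422 in mIAPP islets at 16.7 mM, and 1.40 ± 0.394 in hIAPP islets and 1.48 ± 0.399 in mIAPP islets at 11.1 mM (SD, n = 8). These means differed by less than the spread between sets. Cd74 divided by Csf1r, the receptor gene on which macrophages depend, averaged 1.77 ± 0.414 in hIAPP islets and 2.67 ± 0.758 in mIAPP islets at 16.7 mM, and 2.50 ± 0.590 and 2.72 ± 0.514 in hIAPP and mIAPP islets at 11.1 mM.

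The peptide exchange pair did not move as one. H2-DMa (chromosome 17, 34119541 to 34139101, plus strand) had 5.26, 6.21 and 8.83 CPM in hIAPP islets and 4.85, 7.66 and 8.87 CPM in mIAPP islets at 16.7 mM (lowest, median and highest library), and 5.52, 8.96 and 12.6 CPM in hIAPP islets and 5.64, 8.23 and 15.8 CPM in mIAPP islets at 11.1 mM. All of its groups overlapped. H2-DMa fell by 0.34 ± 0.13 with glucose in hIAPP islets (adjusted p = 0.0269, 7 of 8 sets); without the block its adjusted p was 0.0655, and the call was also lost without set 1, 2, 5 or 6, with no filter on low counts (0.0721), with the mitochondrial covariate (0.648) and in libraries with under 10% mitochondrial counts (-0.15, adjusted p = 0.688). Its change in mIAPP islets was -0.31 ± 0.13 (adjusted p = 0.0607). That value passed with DESeq2 (adjusted p = 0.0355), limma voom (0.0333), RLE scaling (0.0441), a filter at a mean of 1 CPM (0.0388), without the set 7 library (0.0314) and in libraries with under 10% mitochondrial counts (-0.62, 0.0406), but not without the block (0.143) or with the mitochondrial covariate (0.201). No difference between the genotypes in the glucose response of H2-DMa passed (interaction -0.04 ± 0.19, adjusted p = 0.943). The genotype difference was -0.13 ± 0.13 at 16.7 mM (adjusted p = 0.484) and -0.10 ± 0.13 at 11.1 mM (adjusted p = 0.881). The H2-DMa model overlaps Brd2 on the opposite strand. The libraries were made with a directional kit, but the strand setting of the counting is not given in the sources used here, so the count of H2-DMa is uncertain.

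H2-DMb1 (chromosome 17, 34153072 to 34160230, plus strand), the partner chain, had 0.205, 0.374 and 0.793 CPM in hIAPP islets and 0.179, 0.709 and 0.909 CPM in mIAPP islets at 16.7 mM, and 0.459, 1.67 and 2.46 CPM in hIAPP islets and 1.25, 1.63 and 2.80 CPM in mIAPP islets at 11.1 mM. The mIAPP groups were apart between glucose levels and the hIAPP groups were not, through 1 low hIAPP library at 11.1 mM. With glucose H2-DMb1 fell 3.58-fold in hIAPP islets, a log2 change of -1.84 ± 0.30 (adjusted p = 9.64e-06), in 7 of 8 sets. The mIAPP fall was 2.89-fold, or -1.53 ± 0.29 (adjusted p = 0.000134), in 8 of 8. At 16.7 mM the genotypes differed by -0.59 ± 0.30 (adjusted p = 0.158, lower in 7 of 8 sets), which passed without set 7 (-0.87, adjusted p = 0.0276) and in libraries with under 10% mitochondrial counts (-1.23, adjusted p = 0.0150). Its near copy H2-DMb2 had mean levels of 0.184 CPM in hIAPP islets and 0.383 CPM in mIAPP islets at 16.7 mM, and 0.707 and 0.857 CPM in hIAPP and mIAPP islets at 11.1 mM, and reads of the pair can be shared.

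Ciita (chromosome 16, 10480059 to 10528418, plus strand) was read from few counts, 3 to 64 per library. It had 0.0939, 0.311 and 0.581 CPM in hIAPP islets and 0.242, 0.493 and 2.86 CPM in mIAPP islets at 16.7 mM, and 0.791, 1.39 and 1.97 CPM in hIAPP islets and 0.681, 1.32 and 3.53 CPM in mIAPP islets at 11.1 mM. The hIAPP groups were apart between glucose levels, and the highest mIAPP library at each level was that of set 7. With glucose Ciita fell by 2.10 ± 0.34 on the log2 scale in hIAPP islets (adjusted p = 8.21e-06). The mIAPP fall was 2.21-fold, or -1.14 ± 0.32 (adjusted p = 0.00538), and both held in all 8 sets. Without the block the mIAPP value was -0.95 (adjusted p = 0.0684), and with the log2 mitochondrial share as a covariate the hIAPP value was -1.55 (adjusted p = 0.0564). At 16.7 mM the genotypes differed by -0.87 ± 0.35 (adjusted p = 0.0719, lower in 6 of 8 sets), which DESeq2 (adjusted p = 0.0499) and limma voom (0.0245) put under the threshold; it was -0.34 in libraries with under 10% mitochondrial counts (adjusted p = 0.688). Dexi overlaps Ciita on the opposite strand.

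Of the B cell receptor genes, Cd79a and Ighm shared the glucose pattern of the class II genes, and Cd79b had values in the other direction that passed only in some fits. Cd79a (chromosome 7, 24897381 to 24902197, plus strand) encodes the alpha signalling chain of the receptor. It had 0.532, 0.873 and 1.08 CPM in hIAPP islets and 0.751, 1.49 and 2.81 CPM in mIAPP islets at 16.7 mM, against 4.18, 5.07 and 6.83 CPM in hIAPP islets and 3.76, 6.96 and 8.46 CPM in mIAPP islets at 11.1 mM (lowest, median and highest library). Its glucose groups were apart in both genotypes. Its fall with glucose was the steepest of the 10 genes in both genotypes. In hIAPP islets it was 6.58-fold (-2.72 ± 0.19, adjusted p = 1.06e-11), against 4.29-fold among mIAPP islets (-2.10 ± 0.18, adjusted p = 1.45e-09), and every set showed it. In hIAPP relative to mIAPP islets at 16.7 mM it fell by 0.88 ± 0.19 (1.84-fold, adjusted p = 0.00212), in 7 of 8 sets; in libraries with under 10% mitochondrial counts the value was -0.80 and did not pass (adjusted p = 0.0788). At 11.1 mM it was at -0.26 ± 0.17 (adjusted p = 0.755), and its interaction was -0.62 ± 0.25 (adjusted p = 0.190).

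Ighm (chromosome 12, 113418558 to 113422730, minus strand), the constant region gene of the IgM heavy chain, had 5 to 61 counts per library. It had 0.140, 0.285 and 0.499 CPM in hIAPP islets and 0.139, 0.441 and 1.03 CPM in mIAPP islets at 16.7 mM, and 0.994, 1.58 and 2.07 CPM in hIAPP islets and 1.15, 1.37 and 2.92 CPM in mIAPP islets at 11.1 mM. The glucose groups were apart in both genotypes. With glucose Ighm fell 5.41-fold in hIAPP islets, a log2 change of -2.44 ± 0.31 (adjusted p = 3.18e-07). For mIAPP islets the fall was 3.65-fold, or -1.87 ± 0.31 (adjusted p = 2.25e-05), with all 8 sets lower in both genotypes. The genotype difference at 16.7 mM was -0.68 ± 0.32 (adjusted p = 0.127, lower in 6 of 8 sets).

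Cd79b (chromosome 11, 106311341 to 106314762, minus strand), the beta signalling chain gene, had 0 to 39 counts per library. It had 0.235, 0.597 and 1.25 CPM in hIAPP islets and 0.212, 0.334 and 1.74 CPM in mIAPP islets at 16.7 mM, and a median of 0.305 CPM in hIAPP islets and 0.256 CPM in mIAPP islets at 11.1 mM, with highest libraries of 0.879 and 0.955 CPM. All groups overlapped, and 1 hIAPP library at 11.1 mM, that of set 7, had 0 counts, which allows up to 0.197 CPM (3 counts, for counting error only). Its glucose differences were 1.00 ± 0.49 in hIAPP islets (adjusted p = 0.0767, higher in 7 of 8 sets) and 0.90 ± 0.51 in mIAPP islets (adjusted p = 0.148, 6 of 8). The hIAPP value passed with limma voom (1.08, adjusted p = 0.0477). With the mitochondrial covariate they were 2.76 (adjusted p = 0.00875) and 1.56 (adjusted p = 0.0170), and in libraries with under 10% mitochondrial counts 2.00 (adjusted p = 0.0407) and 1.17 (adjusted p = 0.140).

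Counted by groups that do not overlap, 7 of the 10 genes were lower in every library at 16.7 mM than in any at 11.1 mM in hIAPP islets (Cd74, H2-Aa, H2-Ab1, H2-Eb1, Ciita, Cd79a and Ighm), against 8.38% of all tested genes. In mIAPP islets 4 of the 10 were (H2-Eb1, H2-DMb1, Cd79a and Ighm), against 1.41%. Between genotypes, 0 of the 10 were lower in every hIAPP library, against 0.584% of all genes at 16.7 mM and 0.0122% at 11.1 mM; this is a count of ranges, with no tool. Glucose took 85.6% of the variance of log2 levels for Cd79a, 77.8% for Ighm and 50.1 to 66.3% for Cd74, the chain genes, H2-DMb1 and Ciita. H2-DMa differed in kind, with 45.2% between sets and 19.3% between glucose levels, and Cd79b had 62.5% in neither group nor set.

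The 5 genotype calls at 16.7 mM depended on the fit. Without the set as a block, Cd74 and Cd79a kept their calls, while H2-Aa (-0.83, adjusted p = 0.0552), H2-Ab1 (-0.68, adjusted p = 0.112) and H2-Eb1 (-0.86, adjusted p = 0.0551) did not pass. With the log2 mitochondrial share of each library as a covariate the 5 log2 differences were -0.68 (Cd74), -0.84 (H2-Aa), -0.72 (H2-Ab1), -0.78 (H2-Eb1) and -0.75 (Cd79a), and 0 of them passed (adjusted p 0.0635 to 0.186). In libraries with under 10% mitochondrial counts Cd74 (-0.93, adjusted p = 0.0169), H2-Aa (-1.20, adjusted p = 0.00869), H2-Ab1 (-1.01, adjusted p = 0.00417) and H2-Eb1 (-1.26, adjusted p = 0.00732) passed. With the mIAPP library of set 7 left out, 5 of the 10 genes passed at 16.7 mM.

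**Figure D3:**
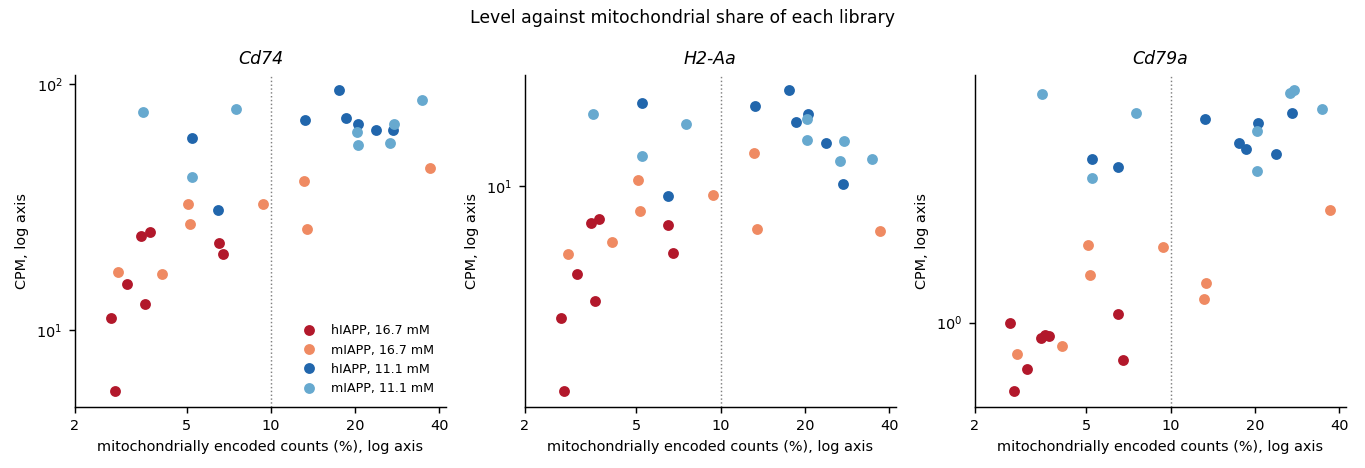
CPM (vertical, log axis) of Cd74, H2-Aa and Cd79a in each of the 32 libraries against the percent of its counts that are mitochondrially encoded (horizontal, log axis; the dotted line is 10%). The 8 hIAPP libraries at 16.7 mM all lie left of the line, and libraries at 11.1 mM on either side of it keep higher levels of Cd79a than all libraries at 16.7 mM.

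Markers of the cells that could hold these transcripts moved in different ways. The B cell markers ranged from 0 to levels like those of Ighm and above. Of 26 in the table, Ighd, Iglc2, Iglc3 and Ly6d had 0 counts in all 32 libraries (up to 0.00332 CPM over all of them), and 10, among them Pax5 and Blk, had at most 3 counts in every library. Others were read in nearly every library: Ms4a1, which encodes CD20, had 496 counts in 31 of 32 libraries, and in mIAPP islets at 11.1 mM it averaged 1.08 CPM, Cd22 1.25 CPM, Spib 0.956 CPM, Cd37 0.575 CPM and Siglecg 3.38 CPM. The summed level of the 26 was 6.16 to 18.7 CPM in hIAPP islets and 6.43 to 67.5 CPM in mIAPP islets at 16.7 mM, and 14.7 to 70.7 CPM in hIAPP islets and 9.73 to 72.7 CPM in mIAPP islets at 11.1 mM, most of it Cd72 and Ebf1, genes that other cells also express. Of the 26, 9 passed the filter on low counts, which a gene can pass through 1 high group alone. Of these 9, 4 fell in hIAPP relative to mIAPP islets at 16.7 mM: Spib (-1.46 ± 0.36, adjusted p = 0.00553), Siglecg (-1.95 ± 0.51, adjusted p = 0.00915), Ebf1 (-0.92 ± 0.26, adjusted p = 0.0166) and Ms4a1 (-1.87 ± 0.56, adjusted p = 0.0199). With glucose 7 of the 9 fell in hIAPP and 4 of the 9 in mIAPP islets, against 33.3% and 22.7% of all tested genes. Between genotypes at 16.7 mM, 11.2% of all tested genes fell.

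Macrophage markers shared the fall with glucose. Of 17 tested, 12 fell in hIAPP islets and 14 in mIAPP islets, with medians of -1.18 and -0.89. Among all tested genes 33.3% fell with glucose in hIAPP and 22.7% in mIAPP islets. Aif1 fell by 2.60 ± 0.22 in hIAPP (adjusted p = 2.72e-10) and by 1.29 ± 0.21 in mIAPP islets (adjusted p = 1.69e-05), and Cx3cr1, a chemokine receptor gene of resident macrophages, by 1.91 ± 0.16 (adjusted p = 3.71e-10) and 1.02 ± 0.16 (adjusted p = 1.17e-05). Csf1r fell by 1.53 ± 0.14 in hIAPP (adjusted p = 1.24e-09) and by 1.16 ± 0.14 in mIAPP islets (adjusted p = 2.71e-07), and C1qb, a complement chain made by resident macrophages, by 1.76 ± 0.16 (adjusted p = 1.16e-09) and 1.25 ± 0.16 (adjusted p = 6.24e-07). The summed level of the 18 markers was 108.1 to 223.7 CPM in hIAPP islets and 108.4 to 245.8 CPM in mIAPP islets at 16.7 mM, and 289.0 to 503.7 CPM in hIAPP islets and 228.0 to 437.5 CPM in mIAPP islets at 11.1 mM. None of the 18 was at 0 throughout. Of 9 pan-leukocyte markers, 8 fell with glucose in each genotype.

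Between genotypes at 16.7 mM, where 11.2% of all tested genes fell and 9.27% rose in hIAPP islets, the macrophage markers split. Aif1 (-1.08 ± 0.21, adjusted p = 0.00101) and Cx3cr1 (-0.70 ± 0.16, adjusted p = 0.00378) were among 3 that fell in hIAPP islets, and the lipopolysaccharide coreceptor gene Cd14 (1.20 ± 0.29, adjusted p = 0.0048) and the lysosomal Cd68 (0.76 ± 0.18, adjusted p = 0.00526) among 3 that rose; the median of the 17 was 0.10. Pan-leukocyte markers split too, with 2 higher and 2 lower of 9. Of 14 endothelial markers 9 fell in hIAPP islets at 16.7 mM, among them Pecam1 (-1.16 ± 0.22, adjusted p = 0.000536), Flt1 (-1.14 ± 0.22, adjusted p = 0.000669), Cldn5 (-1.54 ± 0.30, adjusted p = 0.00069) and Esam (-0.51 ± 0.13, adjusted p = 0.00677), and the median of the 14 was -0.74. The part of these markers in the differences of the 10 genes was not tested.

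**Figure D4:**
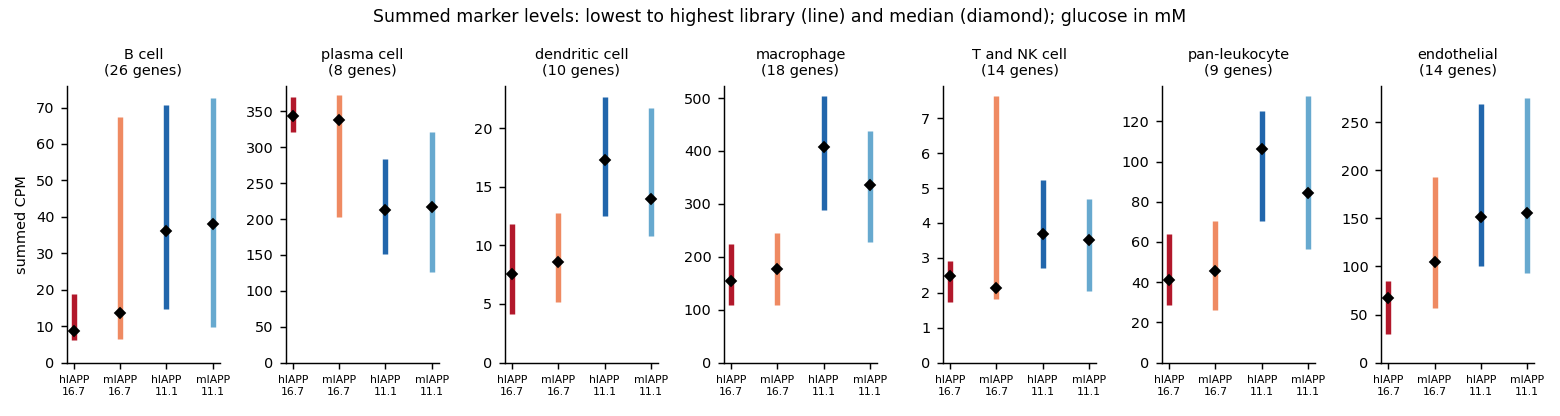
Summed CPM (vertical axis, from 0, on its own scale in each panel) of 7 marker lists in the 4 groups; lines run from the lowest to the highest of 8 libraries and diamonds are medians. The macrophage sum has medians of 153.4 and 177.0 CPM in hIAPP and mIAPP islets at 16.7 mM and of 408.2 and 335.8 CPM at 11.1 mM.

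Within groups, the chain genes and Cd74 varied together most closely. Pearson correlations were taken across the 32 libraries on log2(CPM + 0.5) after the group means were removed, as a description; the libraries share sets, and depth and RNA makeup differ between them. The chain genes correlated at 0.93 to 0.97 with each other and at 0.81 to 0.87 with Cd74. H2-DMb1 correlated at 0.57 to 0.63 with the chain genes, and Ciita, read from 3 to 64 counts per library, at -0.02 to 0.05. With Cd74, H2-DMb1 correlated at 0.29 and Ciita at 0.39. Cd79a and Ighm correlated at 0.62, and Cd79b with Cd79a and Ighm at 0.19 each. Cd74 was about as close to Ighm (0.61) and Cd79a (0.57). The chain genes correlated at 0.42 to 0.54 with Ighm and at 0.19 to 0.33 with Cd79a. Csf1r correlated at 0.68 to 0.77 with Cd74 and the chain genes, at 0.50 with Cd79a and at 0.48 with Ighm. With Cd74 and the chain genes, another macrophage marker, C1qa, correlated at 0.33 to 0.36. The pan-leukocyte marker Ptprc correlated with them at 0.28 to 0.54. The mitochondrial share correlated at 0.62 with Cd79b, 0.56 with Ciita, 0.49 with Cd74 and 0.47 with Cd79a, but at 0.06 to 0.20 with the chain genes.

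**Figure D5:**
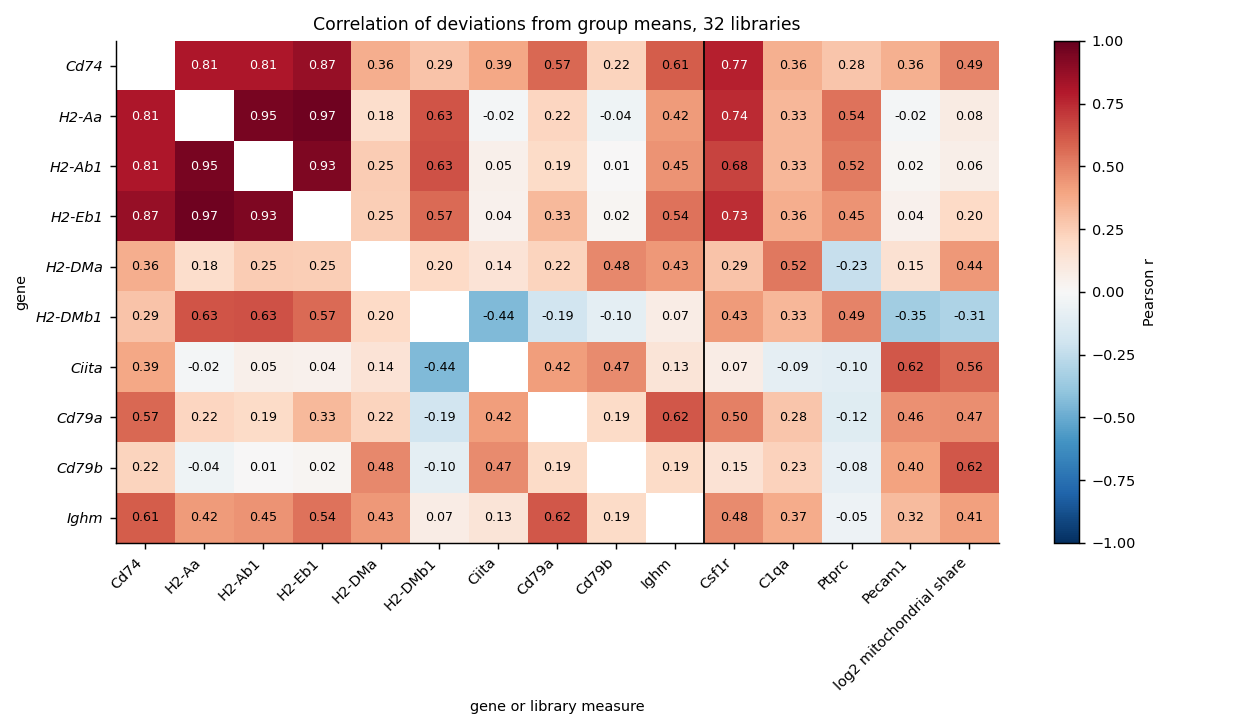
Pearson r (colour and number) between the 10 genes (rows) and the same genes, 4 marker genes and the log2 mitochondrial share (columns), over 32 libraries after group means were removed. The chain genes and Cd74 form a block with r of 0.81 to 0.97, and Ciita stands outside it.

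The genes most like the mean of Cd74 and the 3 chain genes, of 12868 genes outside the lists, were Apoe (r = 0.88), the lipoprotein gene of macrophages and other cells, Il10ra (0.76), the interleukin 10 receptor gene, and Ly86 (0.76), which encodes a partner of a Toll-like receptor homologue. Themis2 (0.69), Lin7b (0.68), Cybb (0.67), the phagocyte oxidase gene, Trf (0.66) and Osgep (0.65) followed. The mean of Cd79a, Cd79b and Ighm was most like Ccdc22 (0.91), Kmt5c (0.90), Ankrd54 (0.89), Mcrip1 (0.89), Dctn2 (0.89), Reep2 (0.89), Ssna1 (0.89) and Zfp688 (0.89), at mean levels of 21.8 to 146.2 CPM. Cd79a, Cd79b and Ighm correlated with each other at 0.19 to 0.62 and with the log2 mitochondrial share at 0.41 to 0.62. The part of that share in their likeness to other genes was not tested. Likeness is over the same 32 libraries.

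Other genes of the class II pathway were split between higher and lower. Of 19 listed, 16 could be tested, and at 16.7 mM 3 rose in hIAPP relative to mIAPP islets and 1 fell. Of all tested genes 9.27% rose and 11.2% fell in this comparison. Cd40, a costimulatory receptor gene (1.11 ± 0.23, adjusted p = 0.0017), Ctsl, which encodes the protease cathepsin L (0.65 ± 0.16, adjusted p = 0.00685), and Nfyb (0.30 ± 0.10, adjusted p = 0.0291) rose. Nfyc (-0.35 ± 0.08, adjusted p = 0.00225), like Nfyb a subunit of the factor that binds the Y box, fell. The median of the 16 was 0.12. With glucose, 6 rose and 5 fell in hIAPP islets and 4 rose and 3 fell in mIAPP islets. Of all tested genes 32.2% rose and 33.3% fell with glucose in hIAPP islets, and 24.9% rose and 22.7% fell in mIAPP islets. Nfyc fell by 0.64 ± 0.08 in hIAPP (adjusted p = 1.21e-07) and by 0.34 ± 0.08 in mIAPP islets (adjusted p = 0.000856). Ctsl rose by 1.21 ± 0.16 in hIAPP (adjusted p = 7.23e-07) and by 0.76 ± 0.16 in mIAPP islets (adjusted p = 0.000498). Rfx5, a subunit of the factor that binds the X box, rose by 0.69 ± 0.13 in hIAPP (adjusted p = 4.89e-05) and by 0.64 ± 0.13 in mIAPP islets (adjusted p = 0.000222). March1, which encodes a ubiquitin ligase that removes class II from the surface, fell by 1.88 ± 0.26 in hIAPP (adjusted p = 8.89e-07) and by 0.79 ± 0.26 in mIAPP islets (adjusted p = 0.0129).

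MHC class I presentation and interferon gamma pathway genes rose, where they passed, in hIAPP relative to mIAPP islets at 16.7 mM. Calls for these and the other further lists are from the main fit only. In this comparison 3371 of all genes passed in the main fit, 1301 without the set as a block and 752 with the mitochondrial covariate. Of 19 class I genes 7 rose in hIAPP islets and 12 did not pass, with a median of 0.24. The share of all tested genes that rose was 9.27%. H2-D1 rose by 0.54 ± 0.13 (adjusted p = 0.00395; 342.8 CPM in hIAPP and 243.0 CPM in mIAPP islets on average), H2-Q4 by 0.48 ± 0.10 (adjusted p = 0.00162), Tapbpl, a peptide editor gene of class I, by 0.36 ± 0.09 (adjusted p = 0.00529) and B2m, the class I light chain gene, by 0.30 ± 0.08 (adjusted p = 0.0103); reads of H2-D1 and H2-Q4 can be shared with near copies. Of 15 interferon gamma pathway genes 10 rose, with a median of 0.35, among them Gbp2, an interferon-induced GTPase gene (1.61 ± 0.28, adjusted p = 0.000255), Ptpn2, a phosphatase gene (0.45 ± 0.09, adjusted p = 0.00139), and the feedback inhibitor gene Socs3 (0.64 ± 0.10, adjusted p = 7.14e-05). Interferon gamma is known to raise class II through Ciita in many cells. Ciita, read from 3 to 64 counts per library, was at -0.87 ± 0.35 in this comparison (adjusted p = 0.0719). It passed with DESeq2 and limma voom, and was at -0.34 in libraries with under 10% mitochondrial counts (adjusted p = 0.688). The part of interferon gamma in the differences of the class II genes was not tested.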

How the data were processed

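RNA of 32 islet cultures (8 per group) was sequenced from poly(A)-selected directional libraries, per the labels' protocols. The submitters' processing notes name bcl2fastq 1.8.4, kallisto 0.45.0 and the GRCm38 build. The authors deposited expected counts, estimated read counts per gene that need not be whole, with no normalization; the strand setting and the summing of transcripts to genes are not given in the sources used here. The deposited values were already whole numbers and were used without further rounding. Library totals were 16.1 to 43.7 M counts.

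Genes were filtered with edgeR 4.0.16 (R 4.3.3, filterByExpr by group), scaled by TMM and fitted by robust quasi-likelihood with group and experiment set as terms (21 residual degrees of freedom). An SE is the log2 fold change divided by the square root of its F value. The labels tie the 4 libraries of a set to 1 experiment, so the set is a block; same-set libraries correlated at 0.17 to 0.36 on average, the lowest pair at -0.23. With the animals per set not stated, p-values measure how much the differences between groups varied from set to set. The spread between sets that all groups share is taken out by the block. Alternatives were no block, DESeq2 1.42.0, limma 3.58.1 voom, RLE scaling, other filters, the mitochondrial share as a covariate, libraries under 10% mitochondrial counts, and sets left out in turn. A floor is 3 counts. The genes and lists were chosen with earlier results of these data known. From each further list in the report, genes named with values of a difference were taken from the 4 with the smallest p in a comparison, with the other genotype's value beside it where the comparison was of glucose; 1 such gene is not reported here; the 8 most similar genes outside the lists were named by Pearson r, at a mean of at least 1 CPM.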

Additional observations from a re-analysis of the deposited data

Results flagged for a closer look

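In groups of 8 libraries, 5 of 40 gene and group combinations had a library at either end far from the next by Dixon's test. For normally distributed values chance does this in about 1 in 20, and CPM of genes with few counts need not be so distributed. In all 5 it was the highest library. H2-DMa was at 8.83 CPM in the hIAPP library of set 8 at 16.7 mM, where the next was 6.87 CPM, and at 15.8 CPM in the mIAPP library of set 5 at 11.1 mM, where the next was 9.82 CPM. The mIAPP libraries of set 7 gave the others. Ciita had 2.86 CPM there at 16.7 mM (next 0.813 CPM) and 3.53 CPM at 11.1 mM (next 1.64 CPM), and Cd79b had 0.955 CPM at 11.1 mM (next 0.482 CPM). The set 7 mIAPP library at 16.7 mM had 37.0% mitochondrial counts; the part of this in the Ciita value was not tested.

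The glucose response of Cd74 differed between hIAPP and mIAPP islets by -0.82 on the log2 scale in a test of the difference itself (edgeR, adjusted p = 0.0485, below 0 in 8 of 8 sets). The call was lost without the replicate block (adjusted p = 0.356), with the mitochondrial covariate (0.389), in libraries under 10% mitochondrial counts (0.644) and with set 1, 2, 4, 6, 7 or 8 left out.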

How the results depend on the processing

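The number of the 10 genes called between genotypes at 16.7 mM was 5, and 2 without the replicate block, 0 with the mitochondrial covariate, and 4 to 6 with 1 set left out. At 11.1 mM it was 0 throughout. With glucose it was 7 to 10 in hIAPP and 7 to 9 in mIAPP islets. The 7 in hIAPP islets were of 7 tested (mean of at least 1 CPM), and the 10 include Cd79b as higher (limma voom). In hIAPP islets Cd79b was also counted as higher among the 8 with the mitochondrial covariate and the 9 under 10% mitochondrial counts. The same held in mIAPP islets among the 9 with the mitochondrial covariate. For the interaction the number called was 1. It was 0 without the replicate block, with no filter on low counts and with the mitochondrial covariate. It was also 0 in libraries under 10% mitochondrial counts and without the 16.7 mM mIAPP library of set 7. The number was 3 with DESeq2, limma voom and a mean of at least 1 CPM, where 7 of the 10 were tested. With 1 set left out it was 0 to 2. The causes were not tested.

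Signs turned only for values that did not pass. In libraries under 10% mitochondrial counts H2-DMa was at 0.016 between genotypes at 16.7 mM, and H2-Aa at -0.33 and H2-Eb1 at -0.48 at 11.1 mM, where 2 hIAPP and 3 mIAPP libraries remained. Ciita was at -0.061 at 11.1 mM without the replicate block. The H2-DMa interaction was 0.074 with the mitochondrial covariate, 0.48 under 10% mitochondrial counts and 0.020 without the set 7 library. With 1 set left out, values at 11.1 mM ran from -0.10 to 0.033 for Cd74, -0.22 to 0.056 for H2-Ab1, -0.053 to 0.21 for Ciita, -0.011 to 0.56 for Cd79b and -0.22 to 0.067 for Ighm, and interactions from -0.12 to 0.045 for H2-DMa and -0.14 to 0.42 for Cd79b.

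Over all genes, 3371 were called between genotypes at 16.7 mM, against 1301 without the replicate block, 752 with the mitochondrial covariate, 1133 under 10% mitochondrial counts, 2108 without the set 7 library and 1623 to 3841 with 1 set left out. The interaction called 513 genes, against 196 without the replicate block, 959 with DESeq2, 946 with limma voom, 7 under 10% mitochondrial counts and 239 to 558 with 1 set left out. With glucose in hIAPP islets 10768 were called, against 3181 with the mitochondrial covariate and 3881 under 10% mitochondrial counts, and up to 11123 (limma voom); in mIAPP islets 7805, against 5181 under 10% mitochondrial counts. Ciita, Ighm, Cd79b and H2-DMb1 rest on few counts, which limits their precision.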

Other observations

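Genes that carry the B cell receptor signal inside the cell, which macrophages share in part, were split at 16.7 mM: of 14, 5 rose and 1 fell in hIAPP relative to mIAPP islets, with a median of 0.08. With glucose 3 rose and 8 fell in hIAPP islets, and 2 rose and 10 fell in mIAPP islets. Among all tested genes 9.27% rose and 11.2% fell between genotypes at 16.7 mM. With glucose, 32.2% of them rose and 33.3% fell in hIAPP islets, and 24.9% rose and 22.7% fell in mIAPP islets. Of 8 plasma cell markers, 5 were tested, and 2 rose and 2 fell with glucose in hIAPP islets. Of 10 dendritic cell markers, 3 were tested; 3 fell with glucose in hIAPP and 2 in mIAPP islets. Of 14 T and NK cell markers, 3 were tested; 2 fell with glucose in hIAPP islets, and 0 were called in mIAPP islets.

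Of 10 beta cell markers, 7 fell in hIAPP relative to mIAPP islets at 16.7 mM, with a median of -0.38. With glucose 9 fell in hIAPP and 5 in mIAPP islets. The shares of all tested genes that fell were 11.2%, 33.3% and 22.7% in the same order. Of 9 markers of other islet cells, edgeR called 0 between genotypes at 16.7 mM.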
